A study of Caenorhabditis elegans with 6 samples.

Results

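The nuclear genes for the machinery of oxidative phosphorylation were examined in sterile adults of the nematode Caenorhabditis elegans, with and without a mutation in the insulin/IGF-1 receptor gene daf-2. Members were taken by name from the deposited table: every gene called nuo, ucr, cox, cco, atp, asb or asg with a number, together with gas-1, lpd-5, isp-1, cyc-1, mev-1, sdha-1, sdhb-1 and sdhd-1. The rule found 28 of the 20422 genes in the table, of which 8 belong to complex I, 4 to complex II, 6 to complex III, 2 to complex IV and 8 to complex V. No gene of the table carries a cox name, because it lists those genes under sequence names such as W09C5.8. Subunits encoded by the mitochondrial genome were not analysed here.

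The 2 groups held 3 samples each, and each sample was the RNA of 100 whole adults picked by hand because no embryos were visible in them. Both groups carried mes-1(bn84ts), a temperature-sensitive mutation that can leave worms without germ cells, and the second group carried daf-2(e1370) as well. Below, mes-1 worms are called controls and daf-2; mes-1 worms double mutants, and every fold change is double mutant over control. Embryos were laid at 24°C, kept at 15°C from day 1 so that daf-2 larvae would not arrest as dauers, returned to 24°C on day 5 as adults, and collected on day 6. Neither the number of worm cultures behind the samples nor a value for any single sample is given in the sources used here. The spread between samples is therefore carried by the adjusted p-values that the authors obtained with DESeq2, and it may be technical.

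Oxidative phosphorylation takes electrons from NADH at complex I and from succinate at complex II, and passes them through ubiquinone, complex III, cytochrome c and complex IV to oxygen. The proton gradient built on the way drives complex V, the ATP synthase. In C. elegans the pathway is tied to lifespan: reduced function of isp-1 or nuo-6 lengthens life, as does RNA interference against nuo-2, cyc-1, cco-1 or atp-3, while mutants of mev-1 and gas-1 are short-lived and sensitive to oxygen. The insulin receptor DAF-2 restrains the FOXO factor DAF-16, and daf-2 mutants live long.

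No subunit gene was called as changed between the genotypes. Of 28 members tested by DESeq2 in the authors' deposited table, 0 had an adjusted p under 0.05, against 10.3% of the 9820 genes tested, and 0 were under 0.1, against 12.2%. The fold changes in the authors' deposited table nevertheless lay close together and almost all on one side of 0: 27 of 28 were positive, meaning higher in double mutants, and the exception was asg-1. Their median log2 fold change was 0.24 in the authors' deposited table, where the median of all tested genes was -0.03 and 47.5% of tested genes were positive. Of the tested genes with a mean normalized count of at least 100, 48.6% were positive in that table, with a median of -0.02. All members were measured in the same 6 libraries, so their values are not independent of each other.

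At an unadjusted p under 0.05, bounded from above from the adjusted values of the authors' deposited table, 2 members were past the threshold, mev-1 and atp-2, both higher. Among all tested genes 7.78% were past it in that direction, so 2 of 28 is near the background. The standard error implied by that bound was at most 0.19 to 0.62 on the log2 scale, with a median of 0.23, which is close to the size of the members' median itself. The implied 95% interval held 0 for 26 of 28 members, and it held the members' median of 0.24 for all 28. The 28 log2 fold changes deposited by the authors had an SD of 0.14, whereas tested genes of like mean count had an SD of 0.75. The implied errors and intervals are the widest that the adjusted p-values allow, and whether members differed from each other was not tested.

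**Figure D1:**
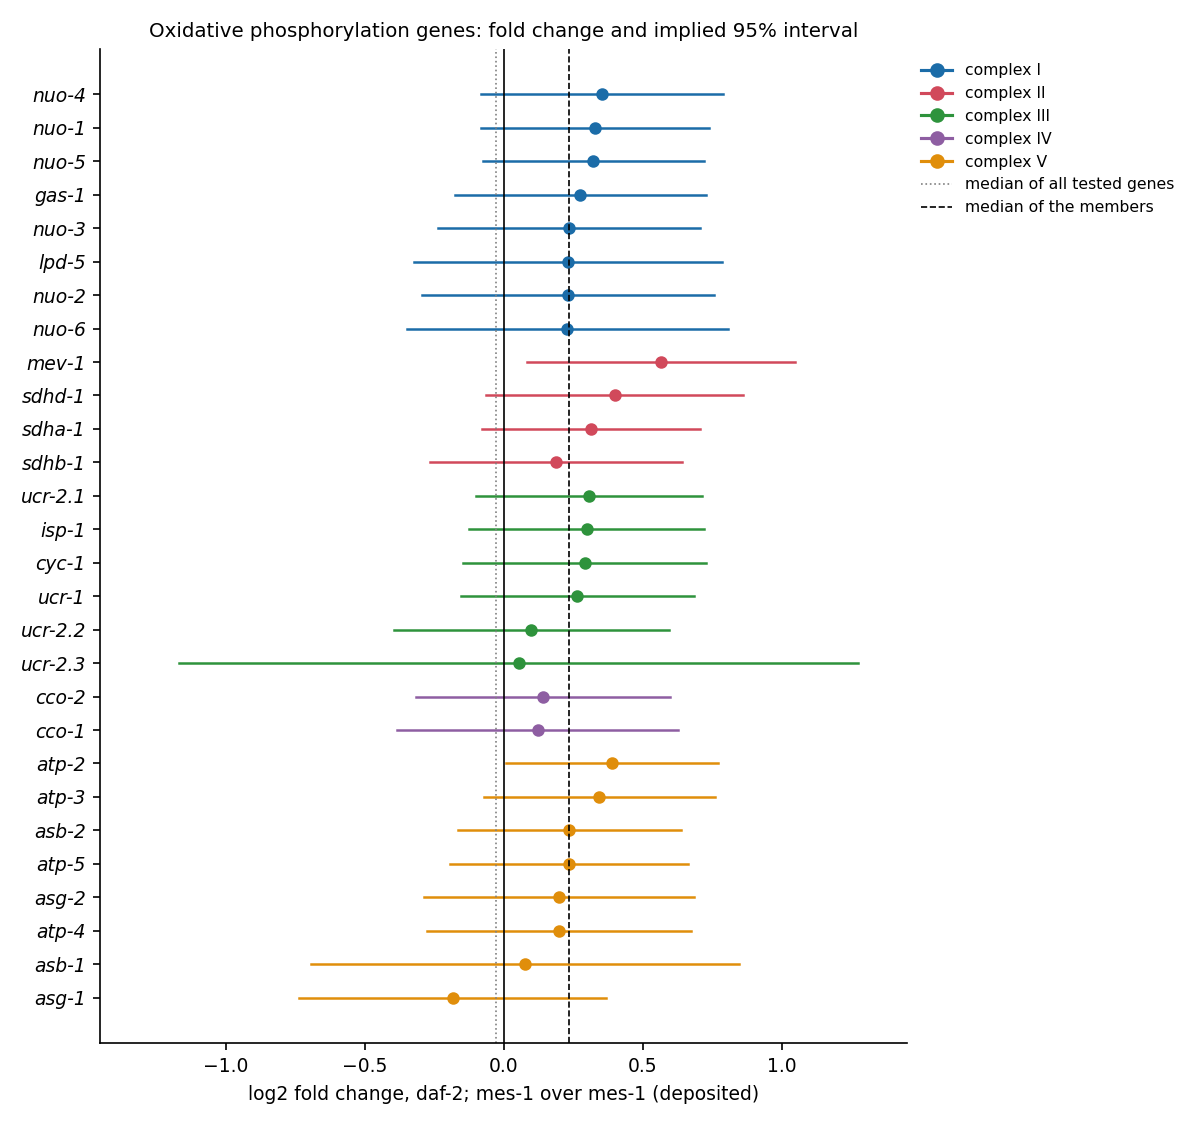
Log2 fold change of each member (double mutant over control, horizontal axis) as deposited, coloured by complex, with lines for the implied 95% interval. All 28 intervals cross the dashed line at the members' median of 0.24, and 26 of them also cross 0.

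Levels were compared per gene length as the authors' RPKM, 1 value for each genotype with no SD. The level of the members in controls ran from 1.97 RPKM for ucr-2.3 to 624 RPKM for atp-2, and 26 of 28 were above 50 RPKM in both genotypes. The exceptions were ucr-2.3 and asb-1. Summed over the 28 genes, the authors' RPKM was 5782 in controls and 6818 in double mutants, a ratio of 1.18. The ratio of single genes had a median of 1.19 and ran from 0.857 for asg-1 to 1.47 for mev-1. These RPKM ratios, with a pseudocount of 1, followed the deposited log2 fold changes over the 28 members with r = 0.969, a correlation across genes of 2 summaries of the same reads.

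**Figure D2:**
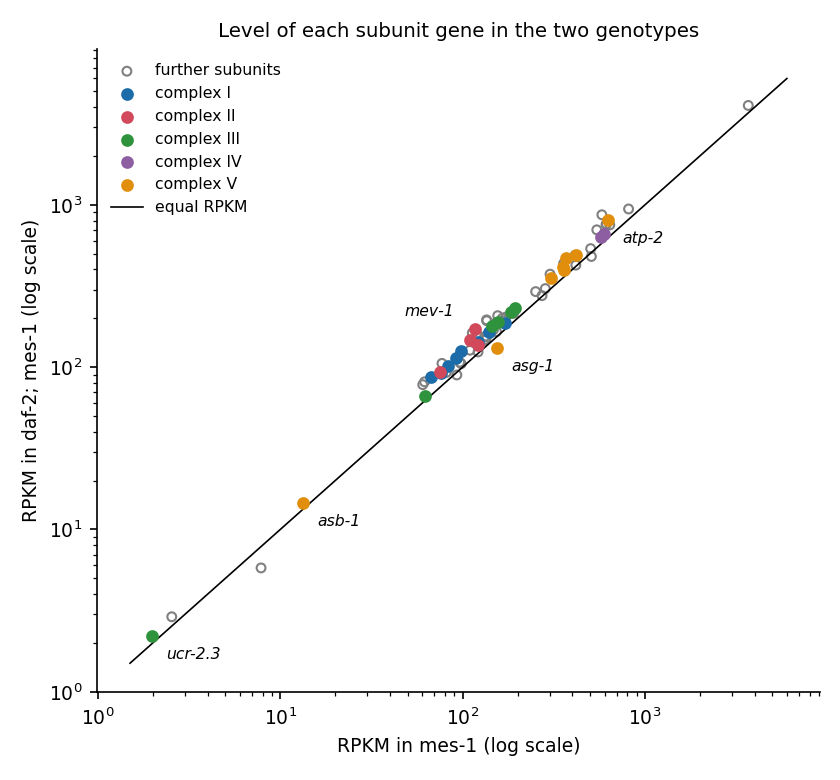
The authors' RPKM of each subunit gene in controls (horizontal, log scale) and in double mutants (vertical, log scale), with the 28 members filled and coloured by complex and further subunits as open circles. Members lie just above the line of equal RPKM, apart from asg-1, and asb-1 and ucr-2.3 lie far below the others in level.

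Complex I, the NADH dehydrogenase, was represented by 8 members whose fold changes differed little. In the authors' deposited table all 8 log2 fold changes were positive, between 0.23 and 0.35, with a median of 0.26 and an SD of 0.05. For nuo-4, which encodes an accessory subunit, the authors' RPKM was 92.1 in controls and 114 in double mutants, and the log2 fold change in the authors' deposited table was 0.35 (adjusted p = 0.472, DESeq2). For nuo-1, the flavoprotein that accepts electrons from NADH, the authors' RPKM was 98.5 and 125, and the deposited log2 fold change 0.33 (adjusted p = 0.483, DESeq2). The iron-sulfur core subunit gene nuo-5 had 67.0 and 86.4 RPKM in the authors' table, the lowest levels of the 8 members in both genotypes. Its exons overlap C24B9.3 on the other strand. The library kit does not mark strand, so reads from the shared stretch cannot be told apart, and its length was not examined.

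Both complex I genes with well-known lifespan mutants sat within the same narrow band. For gas-1, a core subunit whose mutant is sensitive to oxygen and anaesthetics, the authors' RPKM was 83.1 in controls and 101 in double mutants, with a deposited log2 fold change of 0.28 (adjusted p = 0.69, DESeq2). For nuo-6, an accessory subunit, the authors' RPKM was 139 and 166, with a deposited log2 fold change of 0.23 (adjusted p = 0.859, DESeq2). The remaining members were the core subunit gene nuo-2 and the accessory subunit genes nuo-3 and lpd-5, which the authors' deposited table puts at a log2 fold change of 0.23 each. Among them nuo-3 was the most abundant complex I member in both genotypes, at 170 and 186 RPKM in the authors' table.

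Complex II, succinate dehydrogenase, had the highest median log2 fold change in the authors' deposited table, 0.36, from 4 members that were all positive. It is encoded wholly in the nucleus and is also an enzyme of the tricarboxylic acid cycle. The largest fold change of all 28 members was that of mev-1, the cytochrome b anchor in the membrane, on chromosome III from 10334173 to 10335087 as the table gives it. Its RPKM was 117 in controls and 172 in double mutants in the authors' table, a ratio of 1.47. The deposited log2 fold change was 0.56 with an implied standard error of at most 0.25 and an adjusted p of 0.157 (DESeq2), so mev-1 was not called.

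The other membrane anchor gene, sdhd-1, came second within the complex, at 109 and 146 RPKM and a log2 fold change of 0.40 in the authors' deposited table (adjusted p = 0.417, DESeq2). For the flavoprotein gene sdha-1 the authors' RPKM was 74.7 and 93.8 and the deposited log2 fold change 0.31 (adjusted p = 0.481, DESeq2). For the iron-sulfur subunit gene sdhb-1 the authors' RPKM was 121 and 137 and the deposited log2 fold change 0.19 (adjusted p = 0.849, DESeq2). The implied intervals of mev-1, 0.08 to 1.05, and of sdhb-1, -0.27 to 0.64, overlap over most of their length. A paralog of the flavoprotein gene, sdha-2, lies outside the name rule and was listed at 7.84 and 5.79 RPKM, with a log2 fold change of -0.43 in the authors' deposited table (adjusted p = 0.702, DESeq2).

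Complex III, which passes electrons from ubiquinone to cytochrome c, had 6 positive members with a median of 0.28 in the authors' deposited table, 4 of them with nearly equal fold changes. These 4, ucr-2.1, isp-1, cyc-1 and ucr-1, had deposited log2 fold changes of 0.31, 0.30, 0.29 and 0.27, none of them called by DESeq2. Of these isp-1, the Rieske iron-sulfur protein, had 183 RPKM in controls and 219 in double mutants in the authors' table (adjusted p = 0.584, DESeq2). The cytochrome c1 gene cyc-1 had 194 and 233 RPKM in the authors' table (adjusted p = 0.628, DESeq2). These values are the highest of the 6 complex III members in both genotypes. Subunits outside the name rule reached higher levels, such as ucr-11 at 503 and 537 RPKM.

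Of the 3 genes ucr-2.1, ucr-2.2 and ucr-2.3, which encode versions of a core protein of complex III, ucr-2.1 had the highest level. The authors' RPKM in controls was 145 for ucr-2.1, 61.8 for ucr-2.2 and 1.97 for ucr-2.3, and in double mutants it was 179, 66.7 and 2.22, so the order of the 3 paralogs was the same in both genotypes. The deposited log2 fold changes of ucr-2.2 and ucr-2.3 were 0.10 and 0.05 (adjusted p = 0.949 and 0.99, DESeq2). With a mean normalized count of 6.27, ucr-2.3 was near 5.75, the lowest mean of any tested gene in the authors' deposited table. On the other strand its exons meet those of zer-1, whose mean normalized count was 273. Exons of ucr-2.2 meet those of T10B10.3 in the same manner. For both genes, reads from the shared stretch cannot be told apart from those of the partner, and its length was not examined. Without ucr-2.3 the median of the complex was 0.29. With 5 further subunits listed under other names it was 0.12 over 11 genes in the authors' deposited table. Those 5 had a median of 0.07 and ran from -0.10 for T27E9.2 to 0.22 for F45H10.2. By the authors' RPKM, T27E9.2 went the other way, at 61.8 in controls and 81.2 in double mutants.

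Complex IV, cytochrome c oxidase, was represented by cco-1 and cco-2, which encode small subunits made in the nucleus. Both were abundant, with the authors' RPKM at 600 in controls and 664 in double mutants for cco-1, and 572 and 635 for cco-2. Their deposited log2 fold changes were 0.12 and 0.14 (adjusted p = 0.937 and 0.908, DESeq2), with implied standard errors of at most 0.26 and 0.23. Their median of 0.13 was the smallest of the 5 complexes, but the implied intervals of both genes include the medians of the others. Over 7 subunits, once those under other names were added, the median of complex IV was 0.23 in the authors' deposited table, and complex III then had the smallest.

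Complex V, the ATP synthase, held both the most abundant member and the only negative fold change. The catalytic beta subunit gene atp-2, on chromosome III from 5228370 to 5230505, had a mean normalized count of 3237 and the smallest implied standard error, at most 0.19. The authors' RPKM of atp-2 was 624 in controls and 806 in double mutants, and its deposited log2 fold change was 0.39 (adjusted p = 0.259, DESeq2). For atp-3, the stalk protein known as OSCP, the authors' RPKM was 370 and 468 and the deposited log2 fold change 0.34 (adjusted p = 0.452, DESeq2). The authors' deposited table gave log2 fold changes of 0.24 for atp-5 and 0.20 for atp-4, genes of further stalk subunits.

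Both subunits of complex V that exist as pairs of paralogs had one form at a higher level than the other. The stalk subunit b is encoded by asb-1, known from C. elegans as the germline form, and by asb-2, the form of somatic cells. In these samples the authors' RPKM of asb-1 was 13.3 in controls and 14.5 in double mutants, and that of asb-2 was 354 and 412. The level of asb-2 was thus 26.6 times that of asb-1 in controls and 28.4 times in double mutants. Their deposited log2 fold changes were 0.08 and 0.24 (adjusted p = 0.979 and 0.71, DESeq2). RNA of germline and oocyte markers was present in both groups. The 21 markers summed to 3544 RPKM in controls and 1844 RPKM in double mutants in the authors' table. Most of that sum came from the eggshell genes perm-2, at 2008 and 1134 RPKM, and perm-4, at 1392 and 674 RPKM, and the other 19 markers summed to 144 and 35.7 RPKM in the authors' table. Of these markers 8 were tested and 3 called lower in the authors' deposited table. Without perm-2 and perm-4, 1 of 6 was called, and the median log2 fold change was -0.28. None of the 21 markers was listed at 0 in either genotype, and the part of such RNA in the asb-1 level was not tested.

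For the membrane subunit g, asg-1 had 154 RPKM in controls and 132 in double mutants, and asg-2 had 360 and 396 in the authors' table. The deposited log2 fold change of asg-1, on chromosome I from 8692938 to 8693463, was -0.18 with an implied interval of -0.73 to 0.37 (adjusted p = 0.901, DESeq2). That of asg-2 was 0.20 (adjusted p = 0.85, DESeq2), and the interval of asg-1 includes it. The exons of asg-1 overlap those of K07A12.5 on the other strand, with a mean normalized count of 1.23.

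Some members can also be set side by side by the lifespan effect known for their loss. The genes whose reduced function lengthens life, isp-1, nuo-6, nuo-2, cyc-1, cco-1 and atp-3, had 0.30, 0.23, 0.23, 0.29, 0.12 and 0.34 as deposited log2 fold changes. Of the genes whose mutants are short-lived, gas-1 at 0.28 lay within the range of those values and mev-1 at 0.56 above it. No difference between these sets was tested. On the X chromosome the 6 members had a median of 0.26 in the authors' deposited table, and the 22 on autosomes one of 0.24.

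**Figure D3:**
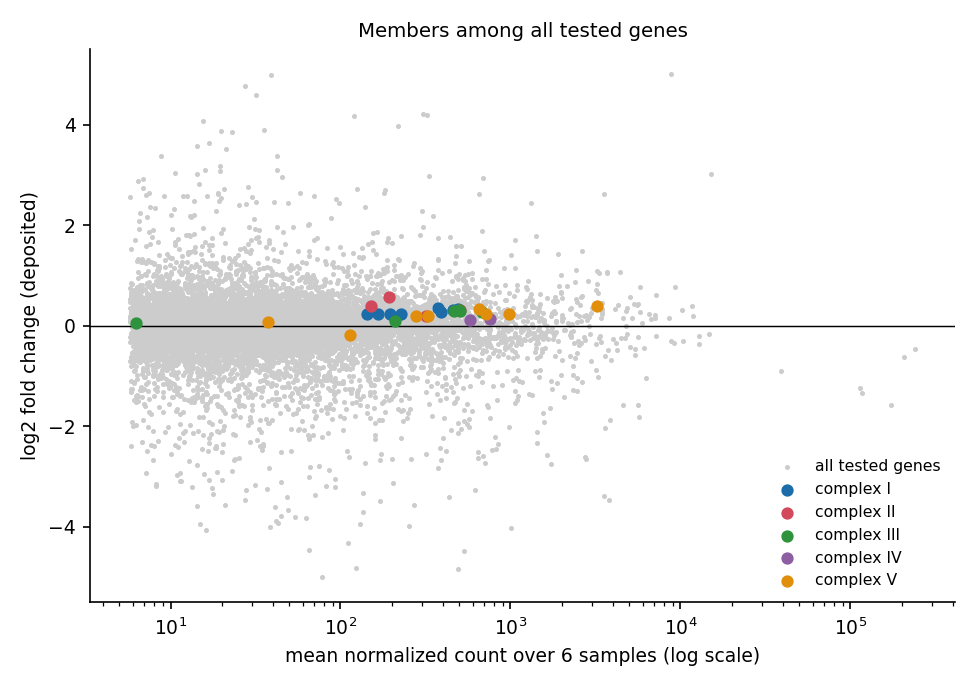
Deposited log2 fold change (vertical) of all 9820 tested genes in grey against the mean normalized count over the 6 samples (horizontal, log scale), with the 28 members coloured by complex. Apart from asg-1 at -0.18, members lie in a band above 0 that reaches 0.56 for mev-1, at mean counts between 6.27 and 3237.

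Subunits listed under other names were mostly positive as well, with lower values in complex III. The name rule leaves out 40 further subunit genes on the list and 6 whose present symbol alone shows the complex, among them atp-1 and cox-4, and the latter 6 were picked after the values had been seen. DESeq2 tested 45 of these per the authors' deposited table, and 0 were called, 41 were positive and the median log2 fold change was 0.22. At a bounded unadjusted p under 0.05 there were 2, both higher. The largest value was that of the complex I core subunit gene nduf-7, at 135 and 195 RPKM and a log2 fold change of 0.59 in the authors' deposited table (adjusted p = 0.0857, DESeq2), and the smallest that of sdha-2. The cytochrome oxidase subunit gene cox-6A, listed as tag-174, had 580 and 868 RPKM and 0.59 in the authors' deposited table (adjusted p = 0.123, DESeq2).

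The most abundant subunit gene of all was Y82E9BR.3, which encodes the c subunit of the ATP synthase ring. The authors' RPKM of Y82E9BR.3 was 3684 in controls and 4092 in double mutants, with a deposited log2 fold change of 0.19 (adjusted p = 0.84, DESeq2). The catalytic alpha subunit gene atp-1, listed as H28O16.1, had 813 and 943 RPKM in the authors' table and 0.25 on the log2 scale (adjusted p = 0.659, DESeq2). Over all 74 subunit genes the median was 0.23, with 68 of 73 tested genes positive in the authors' deposited table. For nduc-2 the table lists a mean count of 0 and RPKM of 0, and its exons overlap cox-6B on the same strand.

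Factors that build cytochrome c oxidase had scattered values at low counts. Of 7 such genes under present symbols, a list drawn up after the values had been seen, DESeq2 tested 6 and called 0 in the authors' deposited table. The largest log2 fold changes were those of cox-10 and cox-15, which make the heme of the enzyme, at 1.03 and 0.80 (adjusted p = 0.0969 and 0.316, DESeq2), and that of the copper chaperone gene cox-11 was -0.36. Of 7 other assembly genes 0 were called, with a median of 0.24, and nuaf-1, a complex I assembly factor, had 1.09 in the authors' deposited table (adjusted p = 0.0607, DESeq2).

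Among the genes of electron carriers and of ATP exchange across the inner membrane 2 were called, out of 15 tested, which is near the background of 10.3%. Of 10 tested genes of ubiquinone synthesis, cytochrome c and electron entry, 1 was called higher and 0 lower in the authors' deposited table, and the median was 0.29. The called gene was coq-2, which attaches the side chain of ubiquinone: its RPKM was 13.4 in controls and 24.5 in double mutants, and its log2 fold change 0.97 in the authors' deposited table (adjusted p = 0.029, DESeq2). The cytochrome c gene cyc-2.1 had 722 and 744 RPKM and 0.04 in the authors' deposited table (adjusted p = 0.985, DESeq2).

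Among the ADP/ATP translocases and inhibitor proteins, 1 of 5 tested genes was called in the authors' deposited table, the translocase gene ant-1.2. Its RPKM rose from 0.877 in controls to 6.75 in double mutants, with a log2 fold change of 2.18 in the authors' deposited table (adjusted p = 0.00115, DESeq2). The main translocase gene ant-1.1 stood far above it, at 1992 and 2641 RPKM and 0.42 in the authors' deposited table (adjusted p = 0.201, DESeq2). For mai-2, an inhibitor of the ATP synthase, the deposited log2 fold change was 0.27 (adjusted p = 0.754, DESeq2).

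Enzymes that feed the chain had a like median without a call. Of 19 tested genes of the tricarboxylic acid cycle and pyruvate dehydrogenase, 0 were called, 15 were positive and the median was 0.25 per the authors' deposited table. The values ran from -0.50 for sucg-1, a subunit gene of succinyl-CoA synthetase, to 0.57 for dlat-1, a subunit gene of pyruvate dehydrogenase, in the authors' deposited table. Among tested subunit genes of succinyl-CoA synthetase, sucg-1, sucl-2 and suca-1 had -0.50, -0.30 and -0.29 in the authors' deposited table. The value of sucl-1 was 0.17, and none of these genes was called. Pyruvate dehydrogenase subunit gene pdha-1 has a mean count of 0 beside 106 and 164 RPKM in the authors' table, 1 of 23 genes with a mean of 0 and at least 10 RPKM, so its fold change is not given.

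Genes for making and importing mitochondrial proteins gave medians of 0.22 for 66 tested mitochondrial ribosomal proteins and 0.20 for 14 import genes in the authors' deposited table, with 0 called in both. Their spread was wider than that of the members, with an SD of 0.35 and 0.42, but their counts were lower. The median mean normalized count was 19.7 and 36.2, against 382 for the members. Median implied standard errors were at most 0.44 and 0.36, against 0.23 for the members. Of 4 tested genes that copy and read the mitochondrial genome 0 were called, and their median was 0.00. A bounded unadjusted p under 0.05 with a higher value, which 7.78% of all tested genes had, was found for 4 of 19 tricarboxylic acid cycle and pyruvate dehydrogenase genes, 3 of 66 mitochondrial ribosomal protein genes, 1 of 14 import genes and 0 of 4 mitochondrial genome genes. With a lower value it was found for 1 mitochondrial ribosomal protein gene and 0 genes of the other lists, beside 999 of all 9820 tested genes. By contrast, 71 of 74 tested cytosolic ribosomal protein genes were negative, with a median of -0.26, an SD of 0.17 and 0 called in the authors' deposited table.

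**Figure D4:**
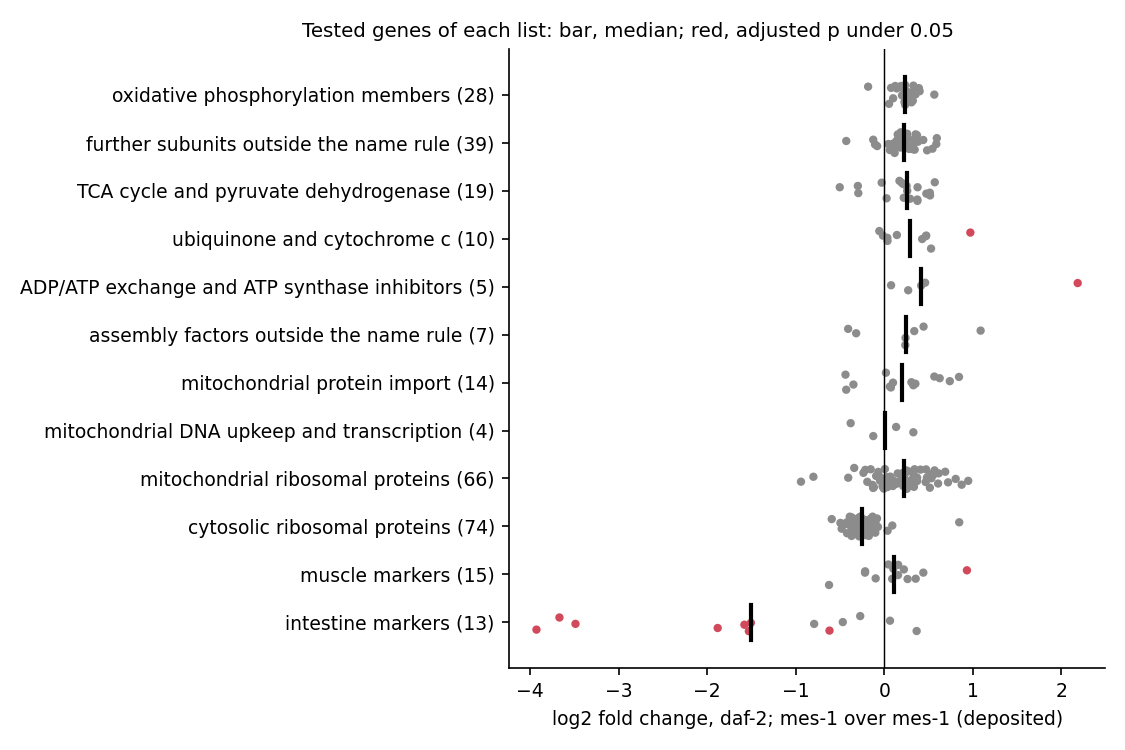
Deposited log2 fold change (horizontal) of the tested genes of each list, with the number of tested genes in brackets, a bar at the median and red points for an adjusted p under 0.05. Mitochondrial lists have medians between 0.00 and 0.42, and red points among them are coq-2 and ant-1.2.

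Several intestine and germline markers were called lower in these whole-worm samples, and markers of other tissues had a single call or none. Fewer cells of a type and less RNA per cell cannot be told apart in such samples. Among all 9820 tested genes 385 were called higher and 624 lower. Of 13 intestine markers 8 were called lower and 0 higher in the authors' deposited table, led by pept-1, pho-1 and ifb-2 at -3.93, -3.67 and -3.49. Positive log2 fold changes were found for 2 of the 13, up to 0.37 for ges-1. The 10 markers other than vitellogenins summed to 4032 RPKM in controls and 1901 in double mutants. Of 15 tested body wall muscle markers, 1 was called higher, myo-3 at 0.93, and the median was 0.11 in the authors' deposited table. The 16 muscle markers summed to 8759 and 10096 RPKM in the authors' table, a ratio of 1.15. The sum ratio was 1.28 for neuron, 1.35 for hypodermis, 0.856 for pharynx muscle, 0.577 for all intestine and 0.520 for germline and oocyte markers. For the subunit genes it was 1.18. Of the 965 RPKM summed over hypodermis markers in controls, 934 came from 1 gene. Of 13 tested neuron markers 1 was called higher, snb-1 at 0.64, with a median of 0.27 in the authors' deposited table, and the sum of 14 such markers went from 554 to 708 RPKM. Of 5 tested pharynx muscle markers 1 was called lower, tni-4 at -0.80, and of 4 tested hypodermis markers 0 were called, and the authors' deposited table gave medians of 0.12 and 0.17, which moved by more than 1.5 times with the count filter or the use of RPKM ratios. The 21 germline and oocyte markers had 8 tested and 3 called lower, nos-2, perm-4 and perm-2, and none of 34 sperm markers was tested. None of the intestine, muscle and neuron markers was listed at 0 RPKM. The part of tissue composition in the fold changes of the subunit genes was not tested.

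The 6 vitellogenin genes made up 34.1% of the summed mean normalized counts, against 0.523% for the 28 members, and their summed RPKM was 94605 in controls and 50250 in double mutants in the authors' table. The part of that difference in the scaling of other genes was not tested. The median log2 RPKM ratio of all tested genes was -0.03, as was the median deposited log2 fold change, and normalization sets such medians near 0. The allele daf-2(e1370) changes an amino acid, so the RNA level of daf-2 does not check the labels: the authors' deposited table gave daf-2, mes-1 and daf-16 log2 fold changes of 0.35, 0.98 and 0.20, none of them called by DESeq2.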

How the data were processed

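RNA from 6 samples was depleted of ribosomal RNA and sequenced from unstranded libraries, per the labels' protocols. The submitters' processing notes list TopHat2 and DESeq2 with no version. Genome build and annotation: not given in the sources used here. Per the file headers, the signal values are each gene's mean normalized count over both genotypes from DESeq2. The log2 values are fold changes (double mutant over control) and the p-values their Benjamini-Hochberg adjusted p, both from DESeq2 per the file headers. The authors deposited 1 RPKM per genotype, made with Cuffdiff2 per the file headers. Log2 fold changes end at 5 and adjusted p-values at 1e-20. Depth per sample is unknown, and the mean counts sum to 2613059.

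A count test of the samples was planned, but the table has no value per sample, so the authors' calls at an adjusted p under 0.05 were used and no new test was made. An unadjusted p was bounded by inverting the adjustment over 9820 genes, tested on simulated data. It gave an implied standard error (the fold change over its normal quantile) and an interval of 1.96 such errors either side. Overlaps came from the WBcel235 exons of Ensembl. Lists were matched by table name, sequence name or present symbol. Every member was named, with up to 3 called genes of each list by size of change; others are examples chosen after their values were seen. Members and lists were chosen with earlier results of these data known. Analyses used Python 3.11.15, pandas 2.3.3 and scipy 1.17.1.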

Additional observations from a re-analysis of the deposited data

How the results depend on the processing

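The members' median log2 fold change of 0.24 stayed between 0.23 and 0.27 under 12 alternatives, and all 53 alternative medians of the members and of single complexes were above 0. With the further subunits of the first list added, complex III went from 0.28 to 0.17 and complex IV from 0.13 to 0.24. These were RPKM ratios with pseudocounts of 0.1, 1 and 5, filters on mean count, centring on all genes or on genes of like mean count, other membership, and leaving out overlapping genes; 4 alternatives were chosen after seeing the data. No member was called at an adjusted p under 0.1 or 0.01 either, and 2 were at a bounded unadjusted p under 0.05. Over all genes 1199 were called at 0.1 and 733 at 0.01. At 0.1, calls rose from 0 to 3 for the tricarboxylic acid cycle and pyruvate dehydrogenase and from 0 to 1 each for the other assembly factors, protein import and the further subunits. The median of the germline markers was -0.40 as deposited and -0.93 and -1.01 as RPKM ratios with pseudocounts of 1 and 0.1, and -0.91 at a mean count of at least 100; the cause was not tested. That of the mitochondrial genome genes, 0.00, turned negative with RPKM ratios at all 3 pseudocounts. Medians of 8 of 15 lists moved by over 1.5 times under some alternative. Hypodermis went from 0.17 to 0.07 and 0.02 as RPKM ratios with pseudocounts of 1 and 5, and neurons from 0.27 to 0.12 and pharynx from 0.12 to 0.07 with 5. Import went from 0.20 to 0.31 and 0.32 with 1 and 0.1. At a mean of at least 100 pharynx was 0.41 and the ubiquinone list, 0.29 as deposited, 0.47; with genes that were not tested the latter was 0.14 and ADP/ATP exchange fell from 0.42 to 0.27. No member is an assembly factor, so leaving those out gave no value. No replicate could be left out and no paired analysis was possible because the table has no value per sample. Single members rest on implied errors of at most 0.19 to 0.62, with a median of 0.23, and depth per sample is unknown.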
